A study of Mus musculus with 8 samples.

Results

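The liver levels of 10 Cyp4 fatty acid hydroxylase genes were followed in mice with and without the N-terminal domains of the lamin B receptor (Lbr). The members were the rows of the deposited count table whose Ensembl identifiers carry the symbols Cyp4a10, Cyp4a14, Cyp4a31, Cyp4a32, Cyp4a12a, Cyp4a12b, Cyp4f13, Cyp4f14, Cyp4f15 or Cyp4v3 in the GRCm38 annotation, 10 of 49671 rows, and all 10 passed the filter on low counts. The RNA came from flash-frozen livers of mice taken after weaning, of strain C57BL/6 in the labels and C57BL/6N in the reporting summary of the study, with 2 libraries for each of 4 groups: male wild type (WT), NT-KO males, WT females and NT-KO females. NT-KO mice are homozygous for a CRISPR deletion that removes the canonical start codon of Lbr. The study expects a truncated protein that keeps the sterol reductase part, and it also mentions a severe reduction of the protein. The line descends from 1 male founder that was crossed to C57BL/6N females, and heterozygous offspring were then intercrossed. Nothing in the labels says that libraries of a group came from separate animals or that animals were littermates, so p-values measure the spread between these libraries only.

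Cytochrome P450 4 enzymes are haem proteins of the endoplasmic reticulum that hydroxylate fatty acids at or near the methyl end, the step that opens omega-oxidation to dicarboxylic acids. In mouse liver, Cyp4a10 and Cyp4a14 are classical targets of PPAR alpha, the nuclear receptor activated by fatty acids and fibrates. Cyp4a12a and Cyp4a12b are male-predominant, androgen-dependent genes whose enzymes turn arachidonic acid into a vasoactive hydroxy fatty acid, whereas Cyp4f enzymes also inactivate leukotriene B4. Cyp4v3 is the mouse counterpart of human CYP4V2, which is mutated in Bietti crystalline dystrophy of the retina.

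The 6 Cyp4a genes lie side by side on chromosome 4, from Cyp4a12a at chr4:115299046-115332815 through Cyp4a12b, Cyp4a14, Cyp4a10 and Cyp4a31 to Cyp4a32 at chr4:115600969-115621602. Cyp4f15, Cyp4f14 and Cyp4f13 share a cluster on chromosome 17 between chr17:32685627-32703352 and chr17:32924688-32947402, and Cyp4v3 stands alone at chr8:45304944-45333216. The coding bases around the loop that holds the haem-binding cysteine show how alike these genes are, which limits how reads can be assigned to them. The 66 bases printed are the 30 bases of the loop codons with 18 coding bases on each side, and they cross an exon border in every member. Capitals mark bases that differ from Cyp4a10 in the Cyp4a genes and from Cyp4f14 in the others. Cyp4a31 and Cyp4a32 carry the Cyp4a10 letters without a difference, and Cyp4a12b carries those of Cyp4a12a.
Cyp4a10: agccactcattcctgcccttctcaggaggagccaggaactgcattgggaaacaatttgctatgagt
Cyp4a14: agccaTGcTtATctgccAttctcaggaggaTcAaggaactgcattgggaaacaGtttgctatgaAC
Cyp4a12a: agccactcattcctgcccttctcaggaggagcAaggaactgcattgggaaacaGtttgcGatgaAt
Cyp4f14: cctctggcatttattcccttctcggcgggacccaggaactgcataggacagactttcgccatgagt
Cyp4f13: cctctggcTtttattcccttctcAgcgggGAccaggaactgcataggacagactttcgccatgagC
Cyp4f15: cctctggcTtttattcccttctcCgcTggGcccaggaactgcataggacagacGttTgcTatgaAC
Cyp4v3: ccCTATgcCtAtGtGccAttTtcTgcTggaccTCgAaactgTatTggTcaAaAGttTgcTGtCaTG

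In build GRCm38 the Cyp4a10 stretch is on the plus strand at chr4:115529484-115529518 in exon 11 and chr4:115532531-115532561 in exon 12. The Cyp4a14 stretch is on the minus strand at chr4:115489789-115489823 in exon 11 and chr4:115487281-115487311 in exon 12, and it differs from Cyp4a10 at 11 bases. The Cyp4a12a stretch, on the plus strand at chr4:115328968-115329002 in exon 11 and chr4:115331834-115331864 in exon 12, differs at 4. The Cyp4f14 stretch is on the minus strand at chr17:32906049-32906083 in exon 11 and chr17:32905648-32905678 in exon 12. Compared with it, Cyp4f13 differed at 5 bases (minus strand, chr17:32925324-32925358 in exon 12 and chr17:32924924-32924954 in exon 13) and Cyp4f15 at 9 (plus strand, chr17:32702380-32702414 in exon 12 and chr17:32702789-32702819 in exon 13). Cyp4v3 differed at 27 bases (minus strand, chr8:45308380-45308425 in exon 10 and chr8:45307089-45307108 in exon 11).

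Over whole coding sequences, Cyp4a10 was 97.2% identical to Cyp4a32 and 96.6% identical to Cyp4a31, and Cyp4a12a was 98.5% identical to Cyp4a12b. Cyp4a14 was well set apart, with 77.6% identity to Cyp4a10. Of all 50-base stretches of their transcripts, Cyp4a12a and Cyp4a12b had 48.9% and 49.5% in common with each other, Cyp4a32 had 43.8% in common with other genes, Cyp4a10 29.8% and Cyp4a31 20.6%. For Cyp4a14 the share was 0.235%, for the Cyp4f genes it lay between 1.11% and 2.39%, and for Cyp4v3 it was 7.02%, all of it shared with Gm45753. How reads that match several genes were counted, and whether strand was used, is not given in the sources used here, so the split of counts among Cyp4a10, Cyp4a31 and Cyp4a32, and between Cyp4a12a and Cyp4a12b, is uncertain.

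**Figure D1:**
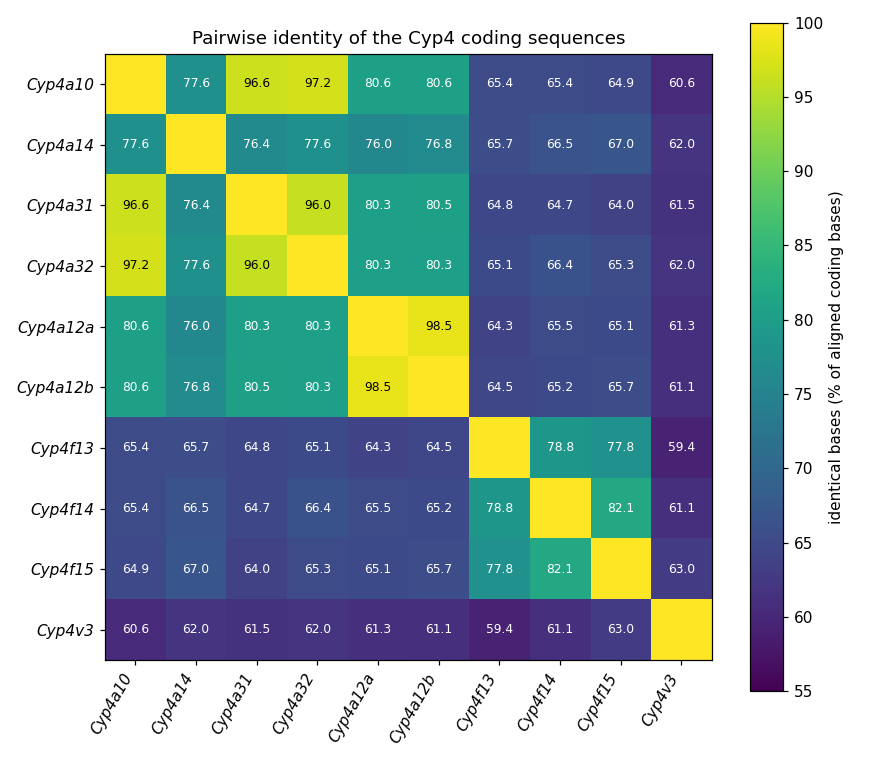
Percent of identical bases between the aligned coding sequences of each pair of Cyp4 genes, as colour and as the printed value. The block of Cyp4a10, Cyp4a31 and Cyp4a32 and the pair of Cyp4a12a and Cyp4a12b stand out at 96.0% or more, while Cyp4v3 stays between 59.4% and 63.0% against every other member.

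The libraries held 45020377 to 64396291 counts, of which 91.8% to 92.9% fell in the 13117 genes tested. Levels are given as CPM, the counts per 1000000 counts in the tested genes with TMM scaling, and 1 count was worth 0.0159 to 0.0256 CPM. Together the 10 members took 0.125% to 0.154% of the counts. All 6 hepatocyte markers were detected in every library, with a summed level of 78189 to 115254 CPM, and the kidney tubule markers, from the other main site of Cyp4a expression, summed to at most 0.0619 CPM. Erythroid markers summed to 1025 and 481 CPM in WT males and to 184 to 403 CPM in the other libraries, and B cell markers reached 55.2 CPM in male NT-KO replicate 2 against 4.11 to 23.6 CPM elsewhere; the part of these cells in the results was not tested. In bulk liver, fewer cells of a type and less RNA per cell cannot be told apart. Lbr itself was counted over the whole gene, so its level checks the labels only in part: it was 7.08 to 8.66 CPM in the WT libraries and 13.8 to 15.2 CPM in the NT-KO libraries, with no overlap (log2 fold change 0.86, SE 0.168, adjusted p = 0.167 in males; 0.91, adjusted p = 1 in females; edgeR quasi-likelihood test with Benjamini-Hochberg adjustment).

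Compared per kilobase of exon, the family had a different leading gene in each sex. In male WT livers Cyp4a12a led with 239 ± 159 CPM per kb (SD, n = 2, as for every ± in the text), ahead of Cyp4v3 at 133 ± 37.3 and Cyp4f14 at 102 ± 23.9. Below them came Cyp4a12b at 51.7 ± 1.85, Cyp4f15 at 47.5 ± 11.1, Cyp4f13 at 13.4 ± 3.05 and Cyp4a32 at 6.19 ± 3.20. The PPAR alpha-inducible genes closed the male WT order, with Cyp4a10 at 1.88 ± 0.334, Cyp4a31 at 0.372 ± 0.0206 and Cyp4a14 at 0.265 ± 0.0838 CPM per kb. In this order Cyp4a12a and Cyp4v3, Cyp4v3 and Cyp4f14, and Cyp4a12b and Cyp4f15 overlapped between libraries, and the other neighbours did not.

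In female WT livers the order began with Cyp4a10 and Cyp4a14, which had been among the last 3 in males. Cyp4a10 stood at 212 ± 18.8 CPM per kb and Cyp4a14 at 135 ± 0.746, followed by Cyp4f14 at 93.1 ± 14.2, Cyp4v3 at 74.5 ± 7.47 and Cyp4f15 at 63.7 ± 2.87. Cyp4a32 at 14.9 ± 1.08 and Cyp4f13 at 14.1 ± 0.102 overlapped, and they were the only neighbours of the female WT order that did. Cyp4a31 had 3.11 ± 1.24 CPM per kb, and Cyp4a12a and Cyp4a12b were at the end with 0.275 ± 0.259 and 0.0430 ± 0.0327.

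NT-KO livers of each sex kept the leading gene of the WT order. In male NT-KO libraries Cyp4a12a had 240 ± 22.5 CPM per kb, Cyp4v3 125 ± 22.8, Cyp4f14 109 ± 6.30, Cyp4f15 64.3 ± 11.8, Cyp4a12b 34.3 ± 2.01 and Cyp4f13 15.7 ± 6.64. Cyp4a32 at 9.46 ± 3.08 and Cyp4a10 at 7.41 ± 5.30 overlapped each other, as did Cyp4a14 at 1.47 ± 1.21 and Cyp4a31 at 0.750 ± 0.677, Cyp4f13 and Cyp4a32, and Cyp4v3 and Cyp4f14. In female NT-KO libraries Cyp4a10 had 150 ± 15.8 CPM per kb and Cyp4f14, at 123 ± 9.69, came before Cyp4v3 at 86.5 ± 14.4, Cyp4a14 at 64.0 ± 22.3 and Cyp4f15 at 62.8 ± 3.88. Cyp4a14 overlapped both Cyp4v3 and Cyp4f15 there, and Cyp4f13 overlapped Cyp4a32 (13.6 ± 7.67).

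Summed by role, the 10 genes reached nearly the same total in 3 of the groups while its make-up turned over between the sexes. The family total was 596 ± 78.1 CPM per kb in WT males, 607 ± 20.7 in NT-KO males, 611 ± 3.76 in WT females and 516 ± 22.8 in NT-KO females. Cyp4a10, Cyp4a14, Cyp4a31 and Cyp4a32 made up 1.51% ± 0.773 of it in WT males and 59.8% ± 3.71 in WT females, with 3.12% ± 1.58 in NT-KO males and 44.4% ± 0.825 in NT-KO females. The Cyp4a12 pair made up 47.5% ± 20.1 in WT males and 45.2% ± 5.57 in NT-KO males, against 0.0522% ± 0.0481 in WT females and 0.156% ± 0.0959 in NT-KO females. The Cyp4f genes held a more even share, from 28.0% ± 2.61 in WT females to 38.8% ± 2.97 in NT-KO females, and Cyp4v3 held 12.2% ± 1.15 to 22.9% ± 9.26. These sums are given as a description, with no test.

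**Figure D2:**
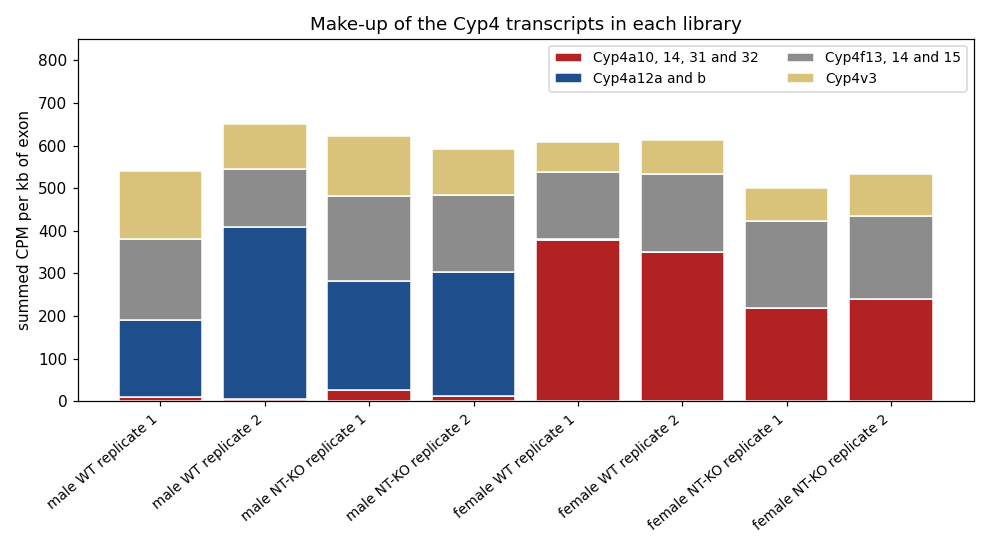
Summed CPM per kb of exon of the 10 Cyp4 genes in each of the 8 libraries, stacked by role. The Cyp4a12 layer fills 47.5% of the male WT total on average and is too thin to see in females, where Cyp4a10, Cyp4a14, Cyp4a31 and Cyp4a32 fill 59.8% in WT.

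WT males and females were compared to describe the sex difference against which the deletion was read. In WT, 5 of the 10 members were called (adjusted p at most 0.05 and a log2 fold change beyond 1 in either direction, edgeR quasi-likelihood test with Benjamini-Hochberg adjustment over all tested genes), where 4.68% of all tested genes were called. Cyp4a12a and Cyp4a12b were higher in males, and Cyp4a10, Cyp4a14 and Cyp4a31 were higher in females. Library values did not overlap between the sexes for 8 members, against 62% of all tested genes: 3 were higher in males, against 30.6%, and 5 lower, against 31.4%. The edgeR likelihood ratio test also called 5 members, among 7.92% of all tested genes, and DESeq2 called 6, among 7.52%. With 2 libraries against 2, an exact two-sided permutation test of a single gene cannot give a p below 0.333, so the calls rest on the spread shared across genes and groups.

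Cyp4a10, a PPAR alpha-inducible omega-hydroxylase, measured 474 and 418 CPM in WT females and 4.47 and 3.48 CPM in WT males. The male value was lower by 6.81 on the log2 scale, a 112-fold difference (SE 0.551, adjusted p = 0.000603). Cyp4a14, its inducible neighbour, measured 350.0 and 353 CPM in WT females and 0.535 and 0.843 CPM in WT males, where the counts behind these values were 28 and 33. The log2 fold change of males against females was -9.01, 516-fold (SE 0.729, adjusted p = 0.000603). Cyp4a14 was thus nearly silent in WT male livers and Cyp4a10 was low there, and both were among the most abundant Cyp4 transcripts in WT females. Cyp4a31 was scarce in both sexes, at 10.002 and 5.60 CPM in WT females and 0.898 and 0.971 CPM in WT males (log2 fold change -3.06, SE 0.625, adjusted p = 0.0324). That call was lost in 6 of the 8 fits that left out 1 library, with adjusted p between 0.0579 and 0.135. Cyp4a32 measured 24.1 and 21.8 CPM in WT females against 12.97 and 6.03 CPM in WT males and was not called (log2 fold change -1.27, SE 0.462, adjusted p = 0.127). It was called by DESeq2.

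The Cyp4a12 genes went the other way. Cyp4a12a measured 308 and 852 CPM in WT males and 1.11 and 0.223 CPM in WT females (log2 fold change 9.80, SE 0.988, adjusted p = 0.00166), an 892-fold difference. The 2 male WT libraries differed 2.76-fold from each other, the widest gap of any member in that group. Cyp4a12b measured 127 and 121 CPM in WT males and 0.158 and 0.0477 CPM in WT females (log2 fold change 10.27, SE 0.390, adjusted p = 4.46e-05), a 1233-fold difference that rests on 8 and 3 counts in females. The male libraries thus agreed for Cyp4a12b and not for Cyp4a12a, and the ratio of Cyp4a12a to Cyp4a12b per kb was 2.40 in male WT replicate 1 against 4.55 to 7.61 in the other 7 libraries. With 1 library left out, the log2 fold change of Cyp4a12a was 8.89 without male WT replicate 2, 9.02 without female WT replicate 2 and 11.33 without female WT replicate 1, and that of Cyp4a12b was 9.58 and 11.27 without the same female libraries. All of these were called. Male WT replicate 1 was also the library with the highest erythroid markers; the part of this in the ratio was not tested.

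None of the Cyp4f genes was called between WT males and females. Cyp4f14, a leukotriene and fatty acid hydroxylase, measured 288 and 207 CPM in WT males and 201 and 250 CPM in WT females (log2 fold change 0.14, SE 0.215, adjusted p = 0.715). Cyp4f13 measured 68.9 and 49.8 CPM in WT males and 63.0 and 62.3 CPM in WT females (log2 fold change -0.08). For Cyp4f15 the libraries did not overlap, at 126 and 90.6 CPM in WT males and 141 and 150 CPM in WT females, and the test was not passed (log2 fold change -0.42, SE 0.212, adjusted p = 0.235). Cyp4v3 measured 607 and 406 CPM in WT males and 264 and 304 CPM in WT females, again without overlap and without a call (log2 fold change 0.84, SE 0.255, adjusted p = 0.0852).

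**Figure D3:**
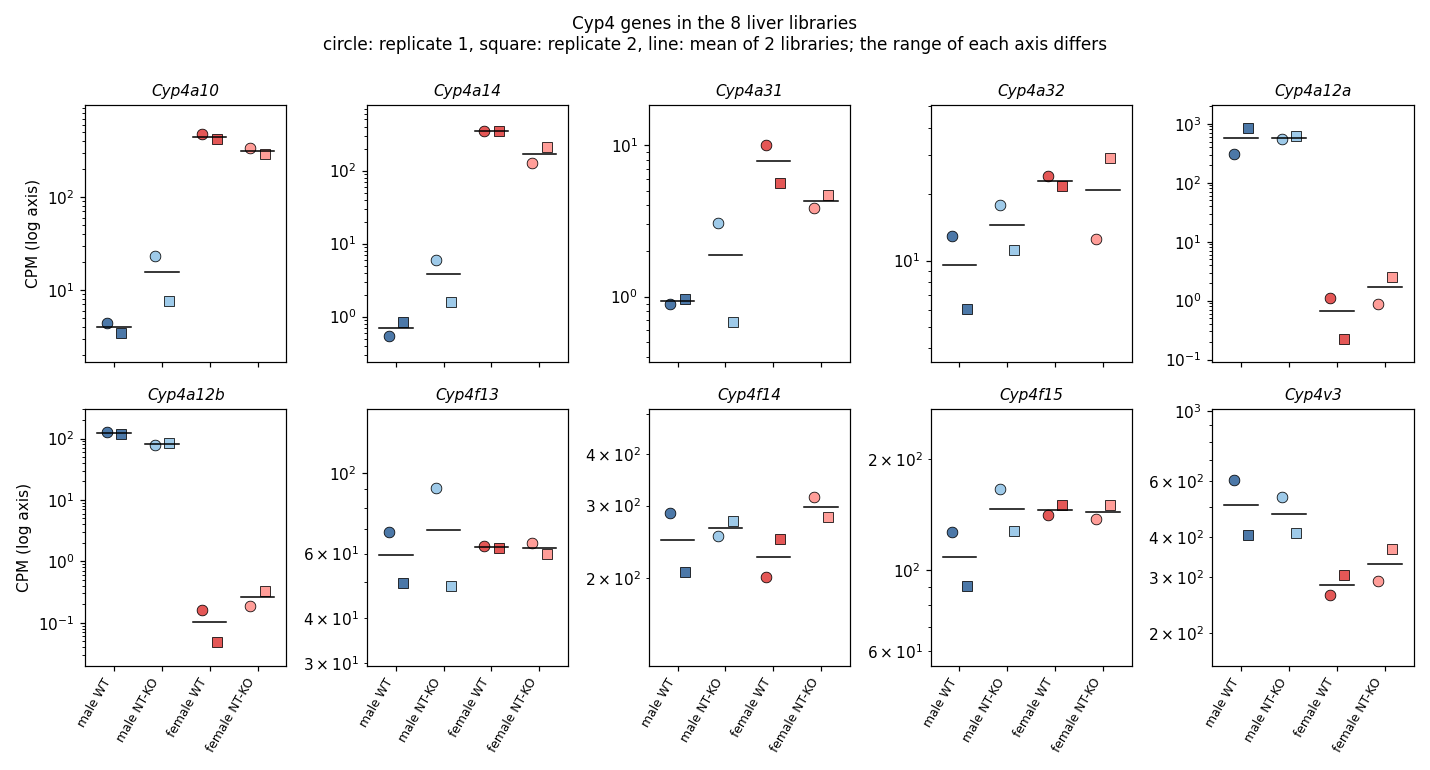
CPM of each Cyp4 gene in the 8 libraries on a logarithmic axis whose range differs between panels, with circles for replicate 1, squares for replicate 2 and a line at the mean of each group. Cyp4a14 lies between 0.535 and 6.04 CPM in the 4 male libraries and between 126 and 353 CPM in the 4 female libraries, Cyp4a12a and Cyp4a12b show the opposite order, and the highest library is 1.56-fold the lowest for Cyp4f14.

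The same contrast was then made within NT-KO animals. There 4 of the 10 members were called by the edgeR quasi-likelihood test, against 1.78% of all tested genes, and 7 members did not overlap between the sexes, against 34.3% (3 higher in males, against 16.9%, and 4 lower, against 17.4%). The likelihood ratio test and DESeq2 each called 4 as well, among 3.13% and 3.06% of all tested genes. The 4 were Cyp4a10, Cyp4a14, Cyp4a12a and Cyp4a12b, each in the direction it had in WT. Cyp4a10 measured 23.5 and 7.72 CPM in NT-KO males and 340 and 293 CPM in NT-KO females (log2 fold change -4.34, SE 0.488, adjusted p = 0.00333), a 20.2-fold difference. Cyp4a14 measured 6.04 and 1.59 CPM in NT-KO males and 126 and 207 CPM in NT-KO females (log2 fold change -5.45, SE 0.609, adjusted p = 0.00333), 43.7-fold. Without male NT-KO replicate 1 the log2 fold changes were -5.36 for Cyp4a10 and -6.71 for Cyp4a14, and without male NT-KO replicate 2 that of Cyp4a14 was -4.79, all called. Both folds were smaller than in WT; the test of that difference is given with the sex-by-genotype contrast.

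Cyp4a12a measured 543 and 620 CPM in NT-KO males and 0.875 and 2.55 CPM in NT-KO females (log2 fold change 8.40, SE 0.922, adjusted p = 0.00308), 337-fold, and without female NT-KO replicate 2 the log2 fold change was 9.37. Cyp4a12b measured 78.7 and 85.5 CPM in NT-KO males and 0.190 and 0.331 CPM in NT-KO females (log2 fold change 8.27, SE 0.347, adjusted p = 7.27e-05), 308-fold. Male dominance of this pair was therefore present in both genotypes. Cyp4a31 measured 3.08 and 0.681 CPM in NT-KO males and 3.84 and 4.65 CPM in NT-KO females (log2 fold change -1.18, adjusted p = 0.596); without male NT-KO replicate 1 its difference was -2.64 and was called, and without male NT-KO replicate 2 it was -0.47 and was not (adjusted p = 0.728). Cyp4a32 measured 17.9 and 11.2 CPM in NT-KO males and 12.5 and 29.2 CPM in NT-KO females, with overlap.

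Among the Cyp4f genes in NT-KO, Cyp4f14 measured 254 and 275 CPM in males and 314 and 281 CPM in females (log2 fold change -0.17, SE 0.215, adjusted p = 0.909). Cyp4f13 measured 90.5 and 48.8 CPM in males and 64.1 and 60.008 CPM in females. Cyp4f15 measured 166 and 128 CPM in males and 137 and 149 CPM in females. Cyp4v3, at 537 and 414 CPM in males and 291 and 368 CPM in females, was higher in both male libraries, as in WT, and was not called (log2 fold change 0.53, SE 0.254, adjusted p = 0.579). All 4 of these genes stayed within 2.30-fold between their highest and lowest of the 8 libraries.

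The effect of the deletion was compared next, first in males. None of the 10 members was called by the edgeR quasi-likelihood test, which called 0.0152% of all tested genes (2 genes); 3 members had an unadjusted p under 0.05, Cyp4a10, Cyp4a14 and Cyp4a12b, as did 11.5% of all tested genes. The outcome depended on the test: the edgeR likelihood ratio test, which called 1.56% of all tested genes, and DESeq2, which called 1.66%, each called 2 members, Cyp4a10 and Cyp4a14. In 4 members the male libraries of the genotypes did not overlap, against 38.9% of all tested genes: NT-KO was above WT for Cyp4a10, Cyp4a14 and Cyp4f15 (19.6% of all tested genes) and below it for Cyp4a12b (19.2%).

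Cyp4a10 stood at 4.47 and 3.48 CPM in WT males and at 23.5 and 7.72 CPM in NT-KO males, a log2 fold change of 1.97 or 3.92-fold (SE 0.453, adjusted p = 0.210). Cyp4a14 stood at 0.535 and 0.843 CPM in WT males and at 6.04 and 1.59 CPM in NT-KO males, a log2 fold change of 2.48 or 5.59-fold (SE 0.609, adjusted p = 0.229). For both genes male NT-KO replicate 1 was the high library, 3.05-fold above replicate 2 for Cyp4a10 and 3.80-fold for Cyp4a14. Without that library the log2 fold changes were 0.95 and 1.23, and without male NT-KO replicate 2 they were 2.56 and 3.14, where Cyp4a10 was called (adjusted p = 0.0469). In such a fit the remaining library of the group is assumed to vary like those of the other groups. With the likelihood ratio test the adjusted p was 0.00417 for Cyp4a10 and 0.00395 for Cyp4a14, and with DESeq2 it was 9.57e-05 and 0.0190. Even the higher of these libraries, at 23.5 CPM, was far below the lowest female library, at 293 CPM.

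The other inducible-type genes did not separate by genotype in males. Cyp4a31 stood at 0.898 and 0.971 CPM in WT males and at 3.08 and 0.681 CPM in NT-KO males (log2 fold change 1.01, SE 0.618, adjusted p = 0.574), and Cyp4a32 at 12.97 and 6.03 CPM against 17.9 and 11.2 CPM (log2 fold change 0.61, SE 0.459). Cyp4a12a, at 308 and 852 CPM against 543 and 620 CPM, had a log2 fold change of 0.0032 (SE 0.661, adjusted p = 0.999), and its sign changed with the library left out. Cyp4a12b stood at 127 and 121 CPM in WT males and at 78.7 and 85.5 CPM in NT-KO males (log2 fold change -0.59, SE 0.235, adjusted p = 0.393), with both NT-KO libraries below both WT libraries. Among the constitutive genes, Cyp4f15 had a log2 fold change of 0.44 (SE 0.212, adjusted p = 0.477), Cyp4f13 0.23, Cyp4f14 0.09 and Cyp4v3 -0.09 (adjusted p between 0.810 and 0.928 for those 3).

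In females, none of the 10 members was called between NT-KO and WT by the edgeR quasi-likelihood test, which called 0.00762% of all tested genes (1 gene). An unadjusted p under 0.05 was found for 1 member, Cyp4a12b, and for 1.55% of all tested genes. The likelihood ratio test and DESeq2 called 0 members as well, while they called 0.0839% and 0.0381% of all tested genes. Libraries did not overlap for 5 members, against 26.4% of all tested genes, with 2 higher in NT-KO (12.2%) and 3 lower (14.2%). Cyp4a14 stood at 350.0 and 353 CPM in WT females and at 126 and 207 CPM in NT-KO females (log2 fold change -1.08, SE 0.503), and Cyp4a10 at 474 and 418 CPM against 340 and 293 CPM (log2 fold change -0.50, SE 0.425), each with adjusted p = 1. Both inducible genes were thus lower in each female NT-KO library than in each female WT library, as was Cyp4a31 (log2 fold change -0.87, SE 0.561).

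Cyp4a12b stood at 0.158 and 0.0477 CPM in WT females and at 0.190 and 0.331 CPM in NT-KO females, from 8, 3, 10 and 20 counts (log2 fold change 1.41, SE 0.489, adjusted p = 1). The log2 fold change was 2.41 without female WT replicate 1 and 0.73 without female WT replicate 2. A count of 3 was worth 0.0477 to 0.0767 CPM, so its lowest library lies at that floor. Cyp4a12a stood at 1.11 and 0.223 CPM in WT females and at 0.875 and 2.55 CPM in NT-KO females, with overlap (log2 fold change 1.41, SE 0.787), and it ran from 0.43 without female NT-KO replicate 2 to 2.94 without female WT replicate 1. Cyp4f14, at 201 and 250 CPM against 314 and 281 CPM, was higher in both NT-KO libraries (log2 fold change 0.40, SE 0.215). Cyp4f13, Cyp4f15, Cyp4a32 and Cyp4v3 overlapped, with log2 fold changes between -0.14 and 0.21.

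**Figure D4:**
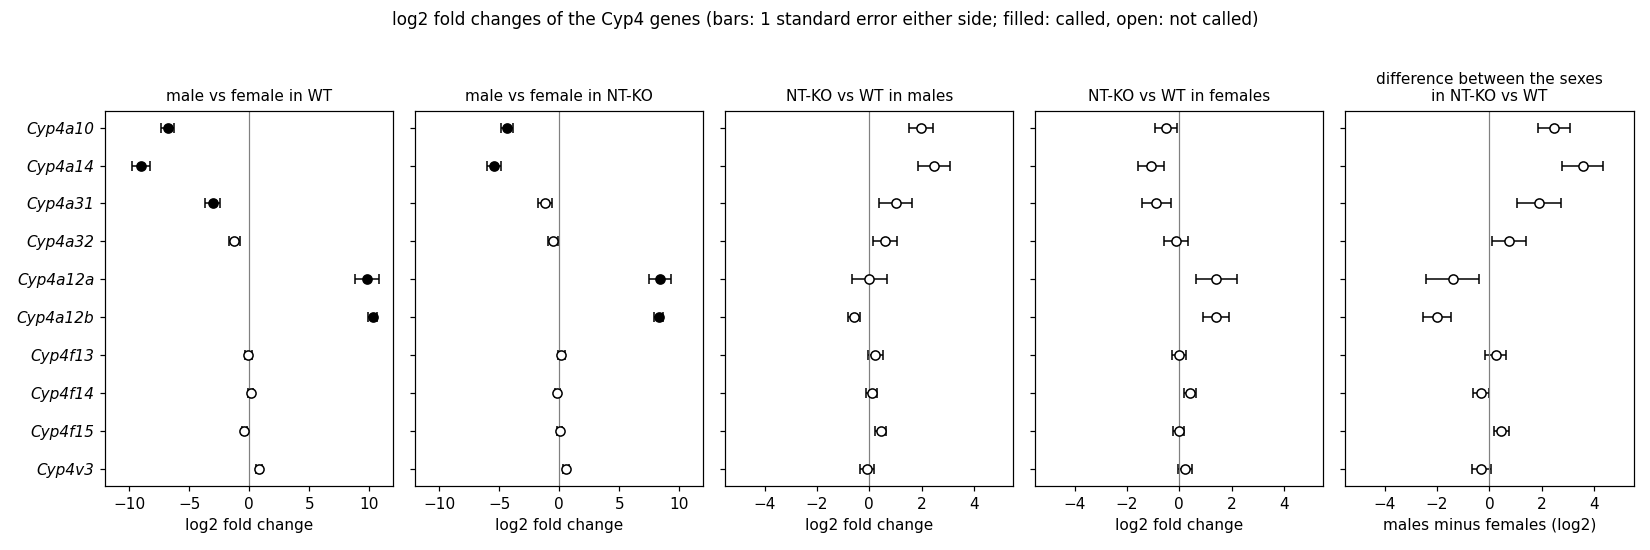
log2 fold changes of the 10 Cyp4 genes in 5 comparisons, with bars of 1 standard error either side, filled points for called genes and a narrower axis for the 3 right-hand panels. The sex differences of Cyp4a10, Cyp4a14, Cyp4a12a and Cyp4a12b are filled in both genotypes, those of Cyp4f13, Cyp4f14 and Cyp4f15 stay between -0.42 and 0.17, and no point is filled in the comparisons of genotype.

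Whether the genotype difference itself depended on sex was tested with the interaction term of the same fit, which uses the libraries of all 4 groups and so shares them with every comparison above. The difference, males minus females, was 2.47 on the log2 scale for Cyp4a10 (SE 0.619), 3.56 for Cyp4a14 (SE 0.791) and -2.001 for Cyp4a12b (SE 0.541), each with adjusted p = 0.573. None of the 10 members was called by the edgeR quasi-likelihood test, which called 0.0152% of all tested genes, and these 3 had an unadjusted p under 0.05, as did 7.20% of all tested genes. For the interaction a call required an adjusted p at most 0.05 alone, with no threshold on the log2 difference. The likelihood ratio test called Cyp4a10 and Cyp4a14 (adjusted p = 0.0406 and 0.00525) among 0.351% of all tested genes, and DESeq2 called the same pair (adjusted p = 0.00282 and 0.0472) among 0.473%. Without male NT-KO replicate 2, Cyp4a10 was called by the quasi-likelihood test with a difference of 3.05 (adjusted p = 0.0493), and Cyp4a14 had 4.22 and was not called (adjusted p = 0.0636). Without male NT-KO replicate 1 the differences were 1.45 and 2.30, each with adjusted p = 0.573. That of Cyp4a12b was -3.001 without female WT replicate 1 and -1.32 without female WT replicate 2, again not called. Cyp4a31 followed with 1.88 (SE 0.834, adjusted p = 0.688) and Cyp4a12a with -1.40 (SE 1.03, adjusted p = 0.783), while the Cyp4f genes and Cyp4v3 lay between -0.31 and 0.46.

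Because reads of near-identical genes may have been split, their counts were also summed. Cyp4a10, Cyp4a31 and Cyp4a32 together measured 18.3 and 10.5 CPM in WT males, 44.5 and 19.6 CPM in NT-KO males, 508 and 446 CPM in WT females and 356 and 326 CPM in NT-KO females. The sum was higher in both male NT-KO libraries than in both male WT libraries (log2 fold change 1.15, SE 0.391, adjusted p = 0.339) and lower in both female NT-KO libraries than in both female WT libraries (-0.48, adjusted p = 1). The sex difference of the sum was called in WT (-5.05, adjusted p = 0.000997) and in NT-KO (-3.41, adjusted p = 0.00470). Cyp4a12a and Cyp4a12b together measured 435 and 972 CPM in WT males and 621 and 705 CPM in NT-KO males (log2 fold change -0.0854, SE 0.616). Cyp4a12a made up most of this sum, with 308 and 852 CPM in WT males against 127 and 121 CPM for Cyp4a12b. The sum therefore cannot show whether the lower level of Cyp4a12b in NT-KO males holds.

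Of 14 other genes and pseudogenes of the Cyp4 family in the annotation, 3 passed the filter on low counts. Cyp4b1, a P450 better known from lung, measured 14.7 and 7.59 CPM in WT males and 19.5 and 24.6 CPM in WT females (log2 fold change -0.98, SE 0.329, adjusted p = 0.106). Cyp4f17 and Cyp4f16 measured 5.42 to 9.52 CPM and 1.42 to 3.37 CPM. None of the 3 was called in any comparison. Cyp4a29 and Cyp4a28-ps, members of the Cyp4a cluster, had 0 counts in all 8 libraries.

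The wider PPAR alpha programme was read from 32 target genes, all of which passed the filter. Like the other lists, these targets were chosen with earlier results of these data known. Between WT males and females 8 were called, all lower in males, and 24 were not, where 4.68% of all tested genes were called. The median log2 fold change was -0.66 against -0.0016 over all tested genes. In NT-KO 3 were called, all lower in males, against 1.78% of all tested genes, with a median of -0.34. Acot3, a peroxisomal acyl-CoA thioesterase, measured 1.51 and 1.20 CPM in WT males, 5.31 and 17.4 CPM in NT-KO males, 208 and 248 CPM in WT females and 196 and 302 CPM in NT-KO females. Its sex difference was called in WT (log2 fold change -7.39, SE 0.626, adjusted p = 0.000740) and in NT-KO (-4.45, SE 0.536, adjusted p = 0.00428), so it had the same female-high order as Cyp4a14. Acot2 (-3.30), Acot4 (-2.82), Acot1 (-2.29) and Acaa1b, a peroxisomal thiolase (-1.41), were also called in WT.

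Between NT-KO and WT, 0 of the 32 targets were called in either sex by the edgeR quasi-likelihood test. In males 8 had an unadjusted p under 0.05, as did 11.5% of all tested genes. Of the 32, 22 had a positive log2 fold change in males, and the median was 0.27 against 0.012 over all tested genes. In females 0 had an unadjusted p under 0.05, against 1.55% of all tested genes, 11 had a positive log2 fold change, and the median was -0.02. The male log2 fold change was 3.06 for Acot3 (SE 0.534, adjusted p = 0.160), 1.27 for Acot4, 1.09 for Acot2 and 0.99 for Acaa1b. For Acot3 male NT-KO replicate 2 was the high library, the opposite of Cyp4a10 and Cyp4a14, in which replicate 1 was. Fgf21, a hepatokine induced by fasting through PPAR alpha, measured 0.344 and 0.256 CPM in WT males and 1.59 and 0.557 CPM in NT-KO males (log2 fold change 1.81, SE 0.553, adjusted p = 0.293). Among the targets named by their female p, the female log2 fold change was -0.86 for Fgf21 (SE 0.496). It was -0.55 for Angptl4, a secreted lipase inhibitor, and -0.61 for Acot1. For Acadvl it was 0.51, the highest female value of the list.

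Several PPAR alpha targets cycle over the day and with feeding, so clock and feeding genes were read in the same libraries. Of 22 clock and feeding genes, 21 were tested. Between WT males and females 3 were called higher and 2 lower in males, where 4.68% of all tested genes were called. In both comparisons of genotype 0 were called. There 8 had an unadjusted p under 0.05 in males and 0 in females, against 11.5% and 1.55% of all tested genes. Per3, a period gene, measured 48.6 and 48.4 CPM in WT males, 74.3 and 73.9 CPM in NT-KO males, 108 and 108 CPM in WT females and 105 and 104 CPM in NT-KO females. Dbp, an output gene of the clock, measured 30.8 and 33.3 CPM in WT males and 70.1 and 54.5 CPM in NT-KO males. The 4 clock genes described were those with the smallest p between the genotypes in males. Per3 and Dbp were lower in the male WT libraries than in the 6 others, whereas Cry1 and Clock were higher in them. Cry1 measured 18.7 and 19.5 CPM in WT males and 7.36 to 13.5 CPM elsewhere, and Clock 35.8 and 37.9 CPM against 14.5 to 26.9 CPM. The male log2 fold changes of these 4 were 0.61, 0.96, -0.88 and -0.71 (adjusted p between 0.203 and 0.273). The labels used here give no hour of collection, and the part of clock or feeding state in the Cyp4a differences was not tested.

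**Figure D5:**
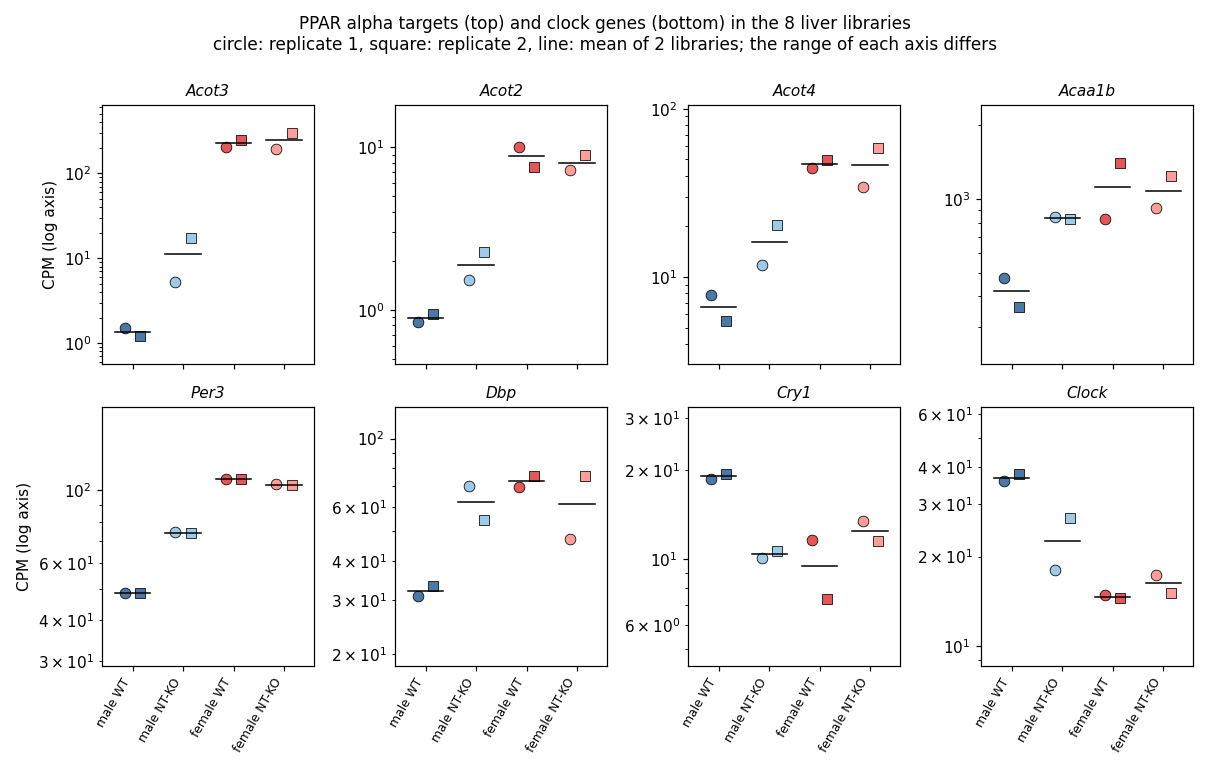
CPM on logarithmic axes of 4 PPAR alpha targets (top) and 4 clock genes (bottom) in the 8 libraries, with circles for replicate 1, squares for replicate 2 and lines at group means. In Acot3, Acot2, Acot4 and Per3 both male WT libraries are the lowest of the 8 and both male NT-KO libraries lie between them and the females, while Cry1 and Clock are highest in WT males.

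The enzymes around omega-hydroxylation gave 1 call. Of 12 genes for electron donors, alcohol and aldehyde dehydrogenases and peroxisomal entry, all tested, Aldh3a2, the fatty aldehyde dehydrogenase that follows the hydroxylase step, was lower in WT males than in WT females (157 and 121 CPM against 414 and 527 CPM, log2 fold change -1.76, SE 0.263, adjusted p = 0.0107). The other 11 were not called in that comparison, where 4.68% of all tested genes were called. In NT-KO between the sexes, and between the genotypes in either sex, 0 of the 12 were called. Por, the reductase that feeds electrons to every microsomal P450, measured 404 and 329 CPM in WT males and 638 and 471 CPM in WT females (log2 fold change -0.60, adjusted p = 0.149). Aldh3a2 in males had a genotype log2 fold change of 0.83 (SE 0.258, adjusted p = 0.298), from 157 and 121 CPM in WT to 208 and 285 CPM in NT-KO.

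Sex-biased liver genes under hormonal control were read beside the Cyp4a12 pair. Of 12 male-biased genes, all tested, 10 were called higher in males in WT and 9 in NT-KO, with medians of 4.50 and 3.77. Cyp2d9, a male steroid hydroxylase, had a log2 fold change of 5.43 in WT and 6.14 in NT-KO, and Mup20, a urinary pheromone carrier, had 7.31 and 7.19. For C6 the values were 4.66 and 3.84, and for Selenbp2 5.40 and 4.58. Of 11 female-biased genes, 11 were called lower in males in WT and 10 in NT-KO. Cux2, a female-specific repressor, had -7.66 and -6.90, and Cyp3a44 had -6.46 and -8.21. Neither list had a gene called between the genotypes in either sex. In NT-KO against WT males, 10 of the 12 male-biased genes had a negative log2 fold change, with a median of -0.39 against 0.012 over all tested genes. Of the 12, 2 had an unadjusted p under 0.05 by the edgeR quasi-likelihood test, against 11.5% of all tested genes. They were C6, with -0.72 (SE 0.179, adjusted p = 0.229 in the same test), and Selenbp2, with -1.28 (SE 0.388, adjusted p = 0.287). Mup20 had -0.69 and Cyp2d9 0.028. In females 5 of the 12 male-biased genes were negative and their median was 0.055. The median centred log2 CPM of the female-biased genes was -5.83 in male WT replicate 1 and -3.002 in male WT replicate 2, against -6.04 and -5.45 in the male NT-KO libraries, so male WT replicate 2 stood apart for this list and its genotype difference in males is not described further.

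Of 10 genes of androgen and growth hormone signalling, all tested, 0 were called between the genotypes in either sex by the edgeR quasi-likelihood test. An unadjusted p under 0.05 was found for 2 in males and 0 in females, against 11.5% and 1.55% of all tested genes. Cish, a target of growth hormone pulses, differed widely between replicates, at 86.6 and 12.2 CPM in WT males and 32.6 and 7.93 CPM in NT-KO females. Bcl6, a male-predominant repressor, measured 56.1 and 52.3 CPM in WT males and 27.2 and 32.9 CPM in NT-KO males (log2 fold change -0.85, SE 0.576, adjusted p = 0.616).

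For 1 gene of each role, the 5 genes outside the family with the most similar pattern were listed by the root mean square difference of centred log2 CPM over the 8 libraries, among 13103 genes. Nearest to Cyp4a14 was Cux2 (0.869), then Aldh3b3 (1.19), Gm29920 (1.22), Zbed4-ps2 (1.22) and Acot3 (1.24). Nearest to Cyp4a12a were Eif2s3y (0.706), Ddx3y (0.795), Kdm5d (0.858) and Uty (1.14), which lie on the Y chromosome, and Mup7 (1.19), a major urinary protein gene. Nearest to Cyp4f14 were Cpped1 (0.0897), Cideb (0.0944), Yju2 (0.0950), D17Wsu92e (0.0968) and Ceacam1 (0.0976). Zbed4-ps2 had 0 counts in every male library and Gm29920 at most 2. The listed Y chromosome genes had at most 10 counts in any female library. Distances to these genes therefore depend on counts near 0 in 1 sex. A pattern with a large sex difference leaves few genes near it, and the 8 libraries share depth and scaling, so all the distances listed are a description.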

How the data were processed

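Poly(A) or other selection is not given in the sources used here; total RNA from liver was made into 8 libraries with an Illumina TruSeq kit. The authors trimmed reads with cutadapt, aligned them to GRCm38 with STAR 2.6.1a and counted them per gene with featureCounts, and the deposited file holds raw counts per gene, all 8 columns of which were used. Symbols came from the GENCODE annotation of GRCm38 (49412 of 49671 identifiers matched), and exon lengths, coding sequences and coordinates from the same release. The count columns that were not used number 0.

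The filter on these counts required 1 CPM or more in 2 or more libraries, and it dropped ribosomal, micro and mitochondrial RNA genes. A single edgeR 4.0.16 fit in R 4.3.3 (TMM, estimateDisp, glmQLFit, glmQLFTest, a mean for each of 4 groups, biological coefficient of variation 0.217) gave log2 fold changes, and Benjamini-Hochberg adjustment ran over all 13117 tested genes. SE is the log2 fold change divided by the root of the F statistic. The fit was tested on simulated data first. Alternatives were the likelihood ratio test, chosen because the study's methods name glmFit and no test, DESeq2 1.42.0, other scalings and filters, a replicate block, robust dispersion, fits on fewer groups, summed genes and each library left out. Libraries of a group differed beyond counting noise (chi-square per degree of freedom 112 to 278), so none was treated as a duplicate. Coding sequences were aligned with Biopython 1.88. Members and gene lists were chosen with earlier results of these data known. The genes named were the 10 members, Lbr, at most 4 genes of each list with the smallest p between the genotypes in males (in WT between the sexes for the sex-biased lists; for PPAR alpha targets also between the genotypes in females), and the 5 nearest genes of Cyp4a14, Cyp4a12a and Cyp4f14. Cyp4a29, Cyp4a28-ps and the markers were named after their values were seen. The result of 1 gene that this rule names is not reported here.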

Additional observations from a re-analysis of the deposited data

Results flagged for a closer look

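For 3 genes the difference between NT-KO and WT pointed in opposite directions in the sexes, with the interaction term at an unadjusted p under 0.05 and not past the adjusted threshold. Cyp4a10 differed by 2.47 on the log2 scale, males minus females (SE 0.619). Both male NT-KO libraries were above both male WT libraries, and both female NT-KO libraries were below both female WT libraries. Cyp4a14 differed by 3.56 (SE 0.791), with the same order of libraries. Cyp4a12b differed by -2.001 (SE 0.541), with both male NT-KO libraries below and both female NT-KO libraries above WT, the females from 3 to 20 counts. Without male NT-KO replicate 1 the difference was 1.45 for Cyp4a10 and 2.30 for Cyp4a14. With all libraries the adjusted p was 0.573 for each of the 3 genes by the edgeR quasi-likelihood test.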

How the results depend on the processing

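The sex differences of Cyp4a10, Cyp4a14, Cyp4a12a and Cyp4a12b were called in both genotypes under every alternative run. Members called between the genotypes in males numbered 2 with the likelihood ratio test, 2 with DESeq2 and 2 without the filter, and 0 to 1 with a library left out; in females 2 without the filter; and in the interaction 2 with the likelihood ratio test, 2 with DESeq2, 5 without the filter and 0 to 1 with a library left out. All 29724 genes with a count enter without the filter, so that fit estimates its dispersion over other genes. Members that changed sign were not called in either case: Cyp4a12a in males was -0.00823 with filterByExpr and -0.0854 when summed with Cyp4a12b, and with library size scaling alone Cyp4f14 between the sexes in WT was -0.0435 and Cyp4f15 in NT-KO -0.0569; the cause was not tested. With 1 library left out, log2 fold changes between the genotypes in males ran from -0.56 to 0.92 for Cyp4a12a, -0.35 to 0.22 for Cyp4v3, -0.13 to 0.35 for Cyp4f14, -0.45 to 1.72 for Cyp4a31 and -0.28 to 0.60 for Cyp4f13. In females they ran from -0.0869 to 0.0391 for Cyp4f15, -0.87 to 0.35 for Cyp4a32 and -0.0626 to 0.0331 for Cyp4f13, and in the interaction from -0.27 to 0.61 for Cyp4f13. Between the sexes in WT they ran from -0.12 to 0.36 for Cyp4f14 and -0.32 to 0.14 for Cyp4f13, and in NT-KO from -0.35 to 0.54 for Cyp4f13, -0.17 to 0.20 for Cyp4f15 and -1.01 to 0.21 for Cyp4a32. The replicate numbers were used as a block in 1 alternative. Over the tested genes, the replicate 1 minus replicate 2 differences of 1 group correlated with those of another group at -0.18 to 0.21. Whether same-numbered libraries share more than a number cannot be told from these values. The block left 0, 0, 0, 5 and 4 members called in males, females, the interaction, WT and NT-KO. With the numbers crossed in male WT, an alternative chosen after seeing the data, the WT sex contrast called 680 genes and 5 members. Groups of 2 libraries leave little to estimate the spread from, and Cyp4a12b in females rests on 3 to 20 counts a library; spread and counting error were not compared.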
